A study of Mus musculus with 10 samples.

Results

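The Wnt pathway genes of the mouse heart described here are 54 protein-coding genes chosen by symbol alone from the 56748 genes of the count tables. They comprise 19 Wnt ligands, 10 Frizzled receptors, the co-receptors Lrp5 and Lrp6, 5 antagonists that bind Wnt proteins (Sfrp1, Sfrp2, Sfrp4, Sfrp5 and Wif1) and 5 antagonists that bind the co-receptors (Dkk1, Dkk2, Dkk4, Sost and Sostdc1). The remaining members are 4 R-spondins, the ubiquitin ligases Znrf3 and Rnf43, the scaffolds Axin1 and Axin2 with beta-catenin (Ctnnb1), and 4 transcription factors of the TCF and LEF family. RNA was sequenced from whole hearts, atria included, of wild-type male C57BL/6 mice that were 8 weeks old when purchased. The 5 training mice ran on a treadmill at 15 m/min for 120 minutes on 5 days per week over 8 weeks, and the 5 sedentary mice of the same age did not run. All 10 animals lived on standard chow, and each heart gave 1 library of poly-A RNA. Mice of a group are separate animals, so that the p-values below measure the spread between these hearts.

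Wnt proteins are secreted lipid-modified ligands that bind Frizzled receptors together with LRP5 or LRP6. In the absence of a ligand, a complex built on axin marks cytoplasmic beta-catenin for destruction, and with a ligand beta-catenin is spared and acts with TCF and LEF factors in the nucleus. Other Wnt ligands, WNT5A and WNT11 among them, mostly act without beta-catenin. The pathway is needed for heart formation in the embryo, and in the adult heart it is studied mainly in injury and fibrosis.

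Libraries held between 29461697 and 39431030 counts on genes. Values per heart are given in CPM, the reverse-strand count of a gene scaled to the library size after correction by TMM, a factor that balances libraries of different composition. Levels of different genes are compared only in the deposited TPM, a measure of transcript abundance that accounts for transcript length as well. Of the cell type marker lists described below, cardiomyocyte markers had the highest summed level in both groups. The 8 genes summed to between 61386 and 65176 CPM in training hearts and between 64516 and 74086 CPM in sedentary hearts. Sedentary heart 1 had the highest atrial marker level of the sedentary hearts, and results that rest on it are given with and without it.

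Before the expression values, promoters are shown for the antagonists Sost and Wif1 and for Fzd7, which were higher in training hearts, and for Axin2, a feedback gene that beta-catenin is known to induce. Each line holds the 250 bases before the start of the Ensembl canonical transcript in GRCm39, written 5′ to 3′ on the strand of the gene, and capitals mark letters that a TCF or LEF factor is known to bind (CTTTG followed by 2 letters that are each A or T, on either strand). Sost lies on the minus strand, and its window is chr11:101857848-101858097. Wif1 lies on the plus strand with the window chr10:120869615-120869864, Fzd7 on the plus strand with chr1:59521019-59521268, and Axin2 on the plus strand with chr11:108811388-108811637.
Sost: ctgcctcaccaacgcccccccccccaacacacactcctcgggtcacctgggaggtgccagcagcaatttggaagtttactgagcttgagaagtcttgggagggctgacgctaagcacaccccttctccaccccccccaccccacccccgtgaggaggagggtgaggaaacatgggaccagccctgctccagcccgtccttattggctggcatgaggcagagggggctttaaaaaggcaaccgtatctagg
Wif1: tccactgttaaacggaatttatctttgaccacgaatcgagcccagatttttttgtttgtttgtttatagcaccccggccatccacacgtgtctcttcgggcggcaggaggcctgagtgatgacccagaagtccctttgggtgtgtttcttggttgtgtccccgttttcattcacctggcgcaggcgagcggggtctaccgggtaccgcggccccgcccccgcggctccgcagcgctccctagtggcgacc
Fzd7: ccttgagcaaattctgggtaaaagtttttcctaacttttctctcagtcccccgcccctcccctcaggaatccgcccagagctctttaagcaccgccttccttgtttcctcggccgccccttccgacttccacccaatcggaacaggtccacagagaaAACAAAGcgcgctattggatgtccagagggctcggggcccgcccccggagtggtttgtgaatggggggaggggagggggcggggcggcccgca
Axin2: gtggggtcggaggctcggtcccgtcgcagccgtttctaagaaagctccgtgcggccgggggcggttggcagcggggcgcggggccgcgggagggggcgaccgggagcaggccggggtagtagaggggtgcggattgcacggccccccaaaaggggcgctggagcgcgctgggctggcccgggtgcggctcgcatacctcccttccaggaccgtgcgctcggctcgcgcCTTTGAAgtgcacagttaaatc

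The Fzd7 window held 1 match, AACAAAG, read from the other strand as CTTTGTT, between 93 and 87 bases before the start. The Axin2 window also held 1 match, CTTTGAA, between 22 and 16 bases before the start, within the gene because other Axin2 transcripts start further upstream. The windows of Sost, Wif1, Fzd3 and Lrp5 held none of these letters. Among the members 8 of 54 windows had a match (14.8%), beside 3184 of 21770 windows of protein-coding genes (14.6%). The other members with a match were Lrp6, Tcf7l1, Rspo1, Rspo2, Wnt8a and Dkk4, the last with 3 of them. Member windows were richer in G and C, with a median of 61.4% against 53.2% for all windows. A match describes the letters of the window and is not a shown binding site.

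Ctnnb1, whose protein also links cadherins at cell junctions, was the most abundant member at 167 ± 16.2 TPM (SD, n = 10). The co-receptors followed, Lrp5 at 18.8 ± 1.15 TPM and Lrp6 at 14.1 ± 1.22 TPM (SD, n = 10), and then Fzd6 at 13.9 ± 0.977 TPM and Fzd4 at 13.3 ± 1.61 TPM (SD, n = 10). The levels of Lrp6, Fzd6 and Fzd4 did not differ beyond their spread. Axin1 was at 7.70 ± 0.834 TPM, Tcf7l1 at 7.35 ± 0.533 TPM and Sfrp5 at 6.00 ± 3.47 TPM (SD, n = 10), the last ranging from 1.94 to 14.2 TPM. Of the 10 most abundant members by TPM, 9 were also among the 10 most abundant by CPM per kilobase of exon. Frizzled receptors summed to 42.3 ± 3.64 TPM in training hearts and 40.5 ± 0.580 TPM in sedentary hearts (SD, n = 5 each). All Wnt ligands together summed to 15.0 ± 0.884 TPM and 13.4 ± 1.06 TPM (SD, n = 5 each). Deposited TPM carry no correction by TMM, so sums of the 2 groups are description only and were not tested.

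**Figure D1:**
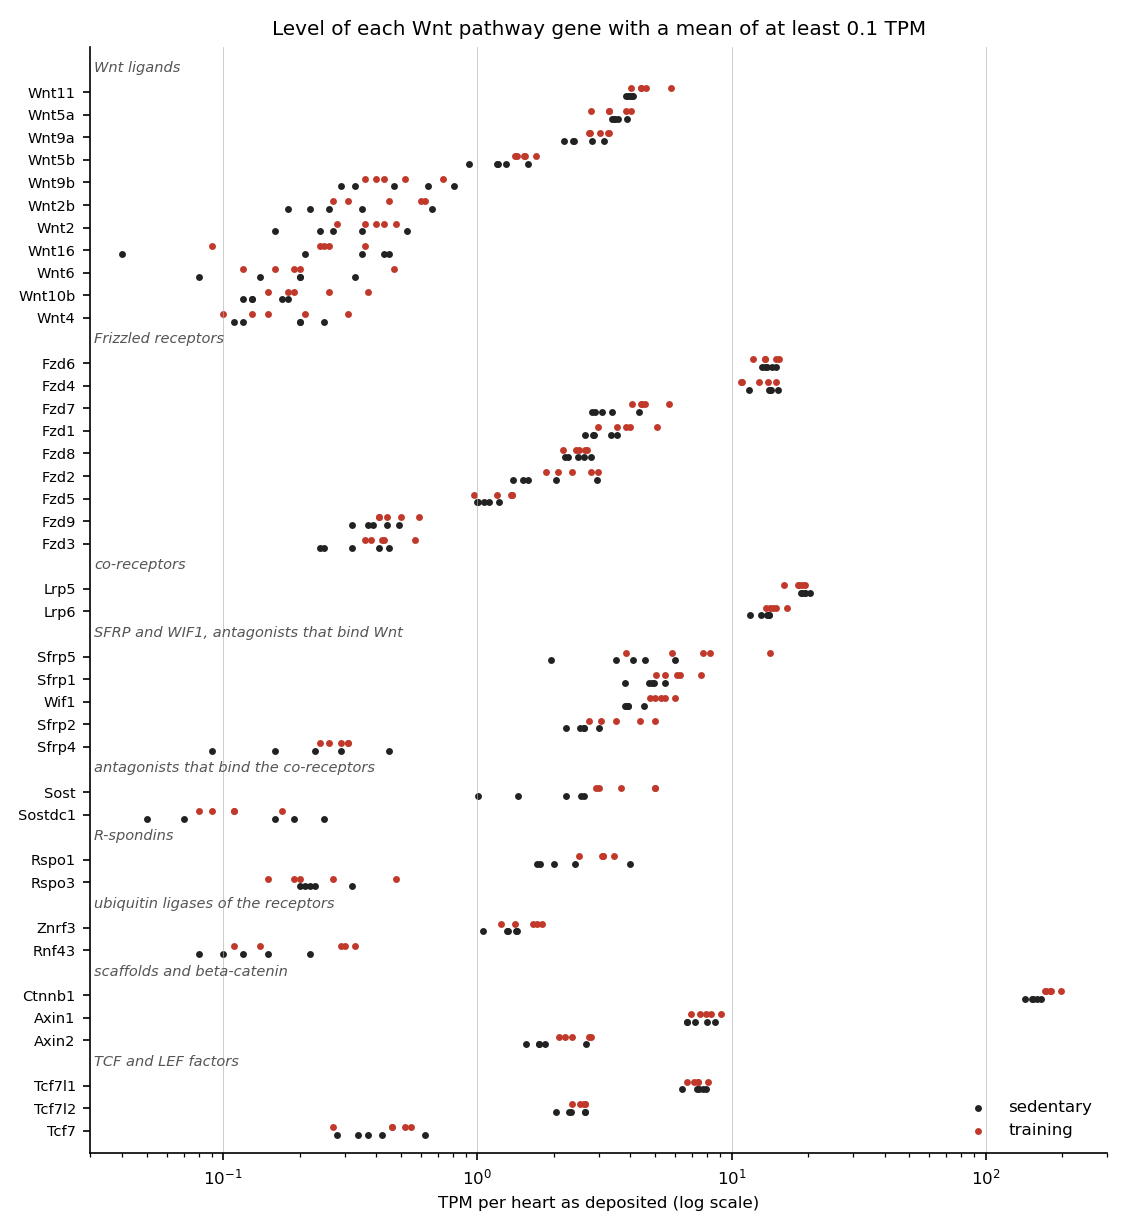
TPM of each member with a mean of at least 0.1 TPM, by role, on a log scale, with 1 point per heart (black, 5 sedentary hearts; red, 5 training hearts). Ctnnb1 stands alone near 167 TPM, the co-receptors and Fzd6 and Fzd4 lie between 10.9 and 20.4 TPM, and 7 of the 11 ligands drawn have a mean below 1 TPM.

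Of the 54 members, 38 passed the filter on low counts and were tested in a fit over all 15454 genes that passed. The other 16 had few or no counts. Wnt3, Wnt8a, Dkk4 and Rspo4 had 0 counts in every heart, which allows a level of up to 3 counts, or between 0.0745 and 0.0995 CPM depending on the library. That limit and the values of rare genes cover counting error only. Wnt1 and Wnt3a had at most 1 count in a heart, Wnt8b, Wnt10a and Dkk1 at most 2, Wnt7a at most 3 and Lef1 at most 5. Rspo2 reached 9 counts, Fzd10 10, Wnt7b 12, Sostdc1 15 and Dkk2 17. A difference between the groups was not detectable for these genes at this depth, apart from the values of Rspo2 given below.

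After training, 4 members were higher and 1 was lower at a false discovery rate (FDR) below 0.1. The higher genes were Sost and Wif1, a pair of secreted antagonists, and the receptors Fzd7 and Fzd3, while the co-receptor Lrp5 was lower. The changes were small, from a 1.29-fold higher level of Wif1 to a 1.87-fold higher level of Sost, with Lrp5 at 0.88 times the sedentary level. These 5 genes are 13.2% of the 38 tested members, and among all genes tested 7.01% were called, 2.75% higher and 4.26% lower. Of the 38 members 30 had a log2 fold change above 0 and 8 below, with a median of 0.14, beside 50.1% above 0 and a median of 0.00026 over all genes tested. Scaling by library totals alone turned only Fzd6 among the members, giving 31 above 0. Before adjustment, 10 members were higher and 2 lower at p below 0.05, beside 20.0% of all genes in either direction, 9.40% higher and 10.6% lower. In a tissue sample, fewer cells of a type and less RNA per cell cannot be told apart, which applies to every difference below.

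**Figure D2:**
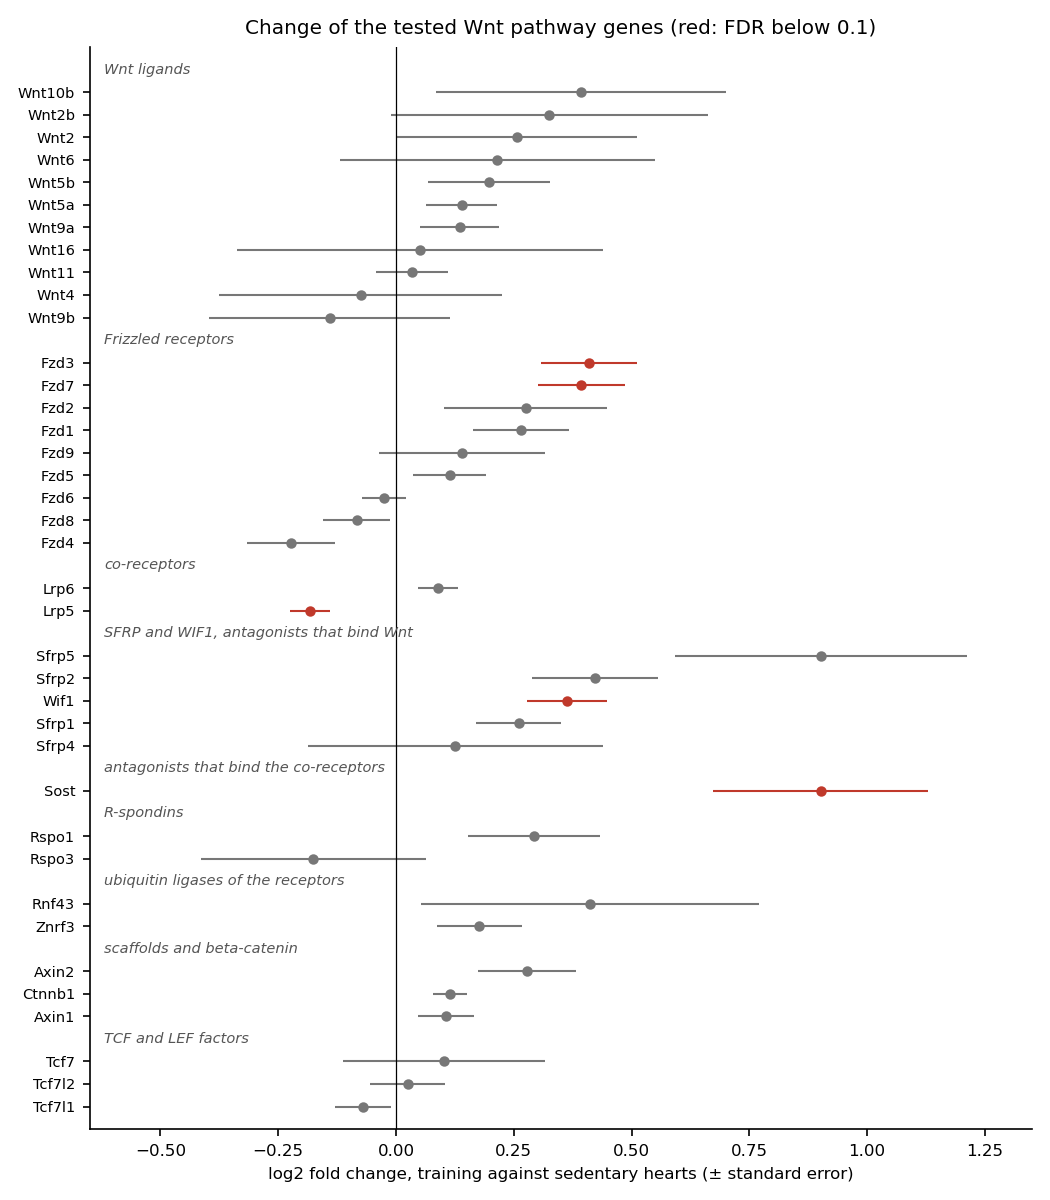
Training against sedentary hearts as log2 fold change (points) with the standard error (bars) for the 38 tested members by role, from edgeR's quasi-likelihood fit on 5 hearts per group. The 5 genes at an FDR below 0.1 are red, with Sost at 0.90 as the furthest right and Lrp5 at −0.18 as the only one to the left of 0.

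Wnt ligands held 0 called members in edgeR and in DESeq2. Of the 19 ligands 11 were tested, 9 above 0 and 2 below, with a median log2 fold change of 0.14 and 0 at an unadjusted p below 0.05. Wnt11 and Wnt5a, whose proteins act mainly without beta-catenin, were the most abundant, with 30.5% and 24.8% of the summed ligand TPM, and Wnt9a followed with 19.7%. Wnt11 was at 6.37, 6.76, 6.08, 6.23 and 6.57 CPM in training hearts 1 to 5 and at 6.24, 5.34, 6.41, 6.89 and 6.36 CPM in sedentary hearts 1 to 5. The groups overlapped throughout, with the highest and the lowest heart both sedentary (log2 fold change 0.034, standard error 0.077, adjusted p = 0.853 in edgeR's quasi-likelihood F test after Benjamini-Hochberg adjustment). Wnt5a was at 14.9, 15.7, 14.2, 14.4 and 11.9 CPM in training hearts and at 13.5, 11.9, 14.4, 12.7 and 12.2 CPM in sedentary hearts. Training heart 5 lay among the lowest hearts and the other training hearts among the upper ones (log2 fold change 0.14, standard error 0.076, edgeR Benjamini-Hochberg adjusted p = 0.329). The other 9 tested ligands ranged from −0.14 for Wnt9b to 0.39 for Wnt10b. Once an atrial marker score was added to the fit, as described below, the ligands split into 6 above and 5 below 0, and without sedentary heart 1 all 11 were above 0.

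Frizzled receptors carried 2 of the called members, both higher, beside 2.75% of all genes called higher. Of the 10 genes 9 were tested, 6 above and 3 below 0, with a median log2 fold change of 0.14. Fzd7 (ENSMUSG00000041075, chromosome 1 of GRCm39, 59521269 to 59534685) encodes a receptor used by several Wnt ligands and known from stem and progenitor cells. It was at 18.4, 19.0, 23.3, 19.4 and 18.1 CPM in training hearts 1 to 5 and at 18.4, 13.2, 15.1, 14.4 and 13.6 CPM in sedentary hearts 1 to 5. Training heart 3 was the highest, and the only sedentary heart within the range of the training hearts was sedentary heart 1. The means were 19.6 ± 2.10 CPM and 14.9 ± 2.06 CPM (SD, n = 5 each), a log2 fold change of 0.39 (standard error 0.092, edgeR Benjamini-Hochberg adjusted p = 0.0376). Fzd7 stayed called in all 10 fits that each left out 1 heart, its highest adjusted p being 0.0871 (edgeR, Benjamini-Hochberg). The call was lost with the atrial score described below in the fit, at 0.20 (edgeR Benjamini-Hochberg adjusted p = 0.312). Its share of the summed Frizzled TPM was 10.9% ± 1.09 in training hearts and 8.15% ± 1.39 in sedentary hearts (SD, n = 5 each).

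Fzd3 (ENSMUSG00000007989, chromosome 14, 65429573 to 65499933) encodes a receptor best known for planar cell polarity and axon guidance. It was at 5.27, 4.24, 4.93, 4.61 and 4.51 CPM in training hearts and at 3.75, 4.20, 3.09, 3.19 and 3.51 CPM in sedentary hearts. All training hearts lay above all sedentary hearts, training heart 2 and sedentary heart 2 being close to each other. The means were 4.71 ± 0.396 CPM and 3.55 ± 0.452 CPM (SD, n = 5 each), a log2 fold change of 0.41 (standard error 0.10, edgeR Benjamini-Hochberg adjusted p = 0.0458). The call was lost when training heart 3 or sedentary heart 3 was left out (highest adjusted p = 0.108, edgeR, Benjamini-Hochberg), and with the atrial score in the fit (adjusted p = 0.185). By TPM Fzd3 was a minor receptor, at 0.383 ± 0.0980 TPM (SD, n = 10). An annotated gene on the same strand, Gm54523, overlaps Fzd3, so that reads of the overlap are uncertain.

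The most abundant receptors, Fzd6 and Fzd4, had values below 0 that did not pass the test. Fzd6, a receptor of planar cell polarity, was at 23.6, 25.8, 25.1, 24.3 and 25.3 CPM in training hearts and at 25.3, 23.6, 26.0, 24.7 and 26.6 CPM in sedentary hearts, which overlapped (log2 fold change −0.025, standard error 0.046, edgeR Benjamini-Hochberg adjusted p = 0.818), and its sign turned with library totals alone, where the value was 0.029. Fzd4, which also serves as the receptor of norrin in blood vessels, was at 72.5, 68.2, 77.2, 88.0 and 90.1 CPM in training hearts and at 73.1, 95.9, 90.8, 105 and 97.0 CPM in sedentary hearts. Sedentary heart 1 was low, next to training heart 1, and the other sedentary hearts were above every training heart. The log2 fold change was −0.22 (standard error 0.094, edgeR Benjamini-Hochberg adjusted p = 0.207), and without sedentary heart 1 it was −0.30 with an adjusted p of 0.0463. AI314278 overlaps Fzd4 on the same strand. Fzd1 was at 12.1, 13.4, 18.9, 14.8 and 14.6 CPM in training hearts and at 12.8, 11.7, 13.9, 11.2 and 12.0 CPM in sedentary hearts. Training heart 3 stood highest, and training hearts 1 and 2 lay within the sedentary range (log2 fold change 0.27, standard error 0.10, edgeR Benjamini-Hochberg adjusted p = 0.168). Fzd2, Fzd5 and Fzd9 had values of 0.28, 0.11 and 0.14 on the log2 scale and Fzd8 had −0.083, and edgeR called none of these 4.

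Of the co-receptors, Lrp5 was lower in training hearts and Lrp6 did not pass the test, and the difference between them was not tested. Lrp5 (ENSMUSG00000024913, chromosome 19, 3634821 to 3736643) was at 79.8, 83.7, 82.4, 90.6 and 85.0 CPM in training hearts 1 to 5 and at 90.6, 97.3, 95.7, 95.4 and 99.4 CPM in sedentary hearts 1 to 5. Training heart 4 met sedentary heart 1 at 90.6 CPM, and the groups were otherwise apart. The means were 84.3 ± 4.02 CPM and 95.7 ± 3.26 CPM (SD, n = 5 each), a log2 fold change of −0.18 (standard error 0.042, edgeR Benjamini-Hochberg adjusted p = 0.0354). Lrp5 stayed lower and called in all 10 fits that each left out 1 heart, its highest adjusted p being 0.0871 (edgeR, Benjamini-Hochberg), but not with the atrial score in the fit, at −0.14 (adjusted p = 0.286). Lrp6, which binds the same ligands and antagonists, was at 87.0, 86.5, 87.0, 89.6 and 91.8 CPM in training hearts and at 85.5, 85.2, 80.8, 87.5 and 76.5 CPM in sedentary hearts. The groups overlapped at sedentary heart 4 (log2 fold change 0.089, standard error 0.043, edgeR Benjamini-Hochberg adjusted p = 0.260). Lrp5 made up 55.2% ± 1.63 of the summed TPM of both co-receptors in training hearts and 59.3% ± 1.86 in sedentary hearts (SD, n = 5 each). Their summed TPM was 33.0 ± 2.15 and 32.7 ± 1.08 (SD, n = 5 each), which differed by less than the spread between hearts.

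The antagonists that bind Wnt proteins all had positive values. All 5 genes were tested and lay above 0, with a median log2 fold change of 0.36, also when scaled by library totals or DESeq2 size factors, and Sfrp4 turned negative with the atrial score in the fit. Wif1 was called, and 4 of the 5 had an unadjusted p below 0.05, beside 9.40% of all genes higher at that p. Wif1 (ENSMUSG00000020218, chromosome 10, 120869865 to 120936555) encodes a secreted protein whose WIF domain binds Wnt ligands. It was at 11.2, 10.1, 11.3, 9.59 and 9.06 CPM in training hearts 1 to 5 and at 6.86, 9.11, 8.12, 7.77 and 8.03 CPM in sedentary hearts 1 to 5. Only training heart 5 and sedentary heart 2 overlapped, and sedentary heart 1 was the lowest of all. The means were 10.2 ± 0.984 CPM and 7.98 ± 0.807 CPM (SD, n = 5 each), a log2 fold change of 0.36 (standard error 0.085, edgeR Benjamini-Hochberg adjusted p = 0.0376). Wif1 stayed called in all 10 fits that each left out 1 heart, its highest adjusted p being 0.0930 (edgeR, Benjamini-Hochberg), but not with the atrial score in the fit, at 0.44 (adjusted p = 0.105).

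Secreted frizzled-related proteins carry a Frizzled-like domain that binds Wnt proteins outside the cell. Sfrp2, known from fibroblasts, was at 5.94, 5.01, 8.27, 8.03 and 5.77 CPM in training hearts and at 4.77, 5.02, 4.26, 5.09 and 5.53 CPM in sedentary hearts. Training hearts 3 and 4 were high, and training heart 2 was within the sedentary range (log2 fold change 0.42, standard error 0.13, edgeR Benjamini-Hochberg adjusted p = 0.102). Sfrp1 was at 22.4, 22.2, 29.9, 25.5 and 24.2 CPM in training hearts and at 22.4, 16.8, 21.2, 22.1 and 21.2 CPM in sedentary hearts. Training heart 3 was again the highest, sedentary heart 2 was low, and sedentary heart 1 reached the lower training hearts (log2 fold change 0.26, standard error 0.091, edgeR Benjamini-Hochberg adjusted p = 0.133). Sfrp5 varied most, with 15.1, 6.53, 23.9, 10.0 and 12.6 CPM in training hearts and 7.82, 3.68, 6.20, 11.3 and 7.59 CPM in sedentary hearts. The ranges overlapped widely although the fold was as large as that of Sost (log2 fold change 0.90, standard error 0.31, edgeR Benjamini-Hochberg adjusted p = 0.128). DESeq2 called Sfrp1 and Sfrp2, with Benjamini-Hochberg adjusted p of 0.0787 and 0.0452, and did not call Sfrp5 at 0.161. The 5 antagonists summed to 23.4 ± 5.72 TPM in training hearts and 15.6 ± 1.74 TPM in sedentary hearts (SD, n = 5 each). These sums are not corrected by TMM and were not tested. Sfrp5, which was not called, was at 7.97 TPM and 4.02 TPM on average in the 2 groups.

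Sost had the largest change of the called members. Sost (ENSMUSG00000001494, chromosome 11, 101853284 to 101857847) encodes sclerostin, a secreted protein of bone cells that binds LRP5 and LRP6 and keeps Wnt ligands from using them. It was at 5.83, 5.61, 9.13, 9.56 and 6.67 CPM in training hearts 1 to 5 and at 4.27, 2.89, 5.03, 2.08 and 5.34 CPM in sedentary hearts 1 to 5. Every training heart was above every sedentary heart, with training hearts 3 and 4 the highest and sedentary heart 4 the lowest. The means were 7.36 ± 1.86 CPM and 3.92 ± 1.40 CPM (SD, n = 5 each), 1.87-fold higher, a log2 fold change of 0.90 (standard error 0.23, edgeR Benjamini-Hochberg adjusted p = 0.0480). The call was lost when sedentary heart 2, training heart 3 or training heart 4 was left out (highest adjusted p = 0.121, edgeR, Benjamini-Hochberg), and with the atrial score in the fit (adjusted p = 0.283). Gm20659 overlaps Sost on the other strand, and 0.252% of the counts in the Sost interval of both strands were on that strand. Among 9 cartilage and bone markers, Mepe was at 0 in every heart, and Col2a1, Ibsp, Bglap, Dmp1, Phex and Sp7 had at most 10 counts in any heart. Acan, an aggregating proteoglycan of cartilage and valves, was higher in training hearts (log2 fold change 0.86, edgeR Benjamini-Hochberg adjusted p = 0.0505), and the 9 genes summed to between 4.22 and 6.67 CPM in training and between 3.23 and 5.09 CPM in sedentary hearts. Most of these sums was Sox9, at 4.13 CPM on average in training and 3.36 CPM in sedentary hearts, which was not called (edgeR Benjamini-Hochberg adjusted p = 0.373). The part of these 9 markers in the Sost difference was not tested. Of the other antagonists of the co-receptors, Sostdc1 had 3 to 15 counts per heart, and Dkk2 had 9, 9, 17, 12 and 9 counts in training hearts and 10, 3, 5, 11 and 5 in sedentary hearts, which overlap.

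**Figure D3:**
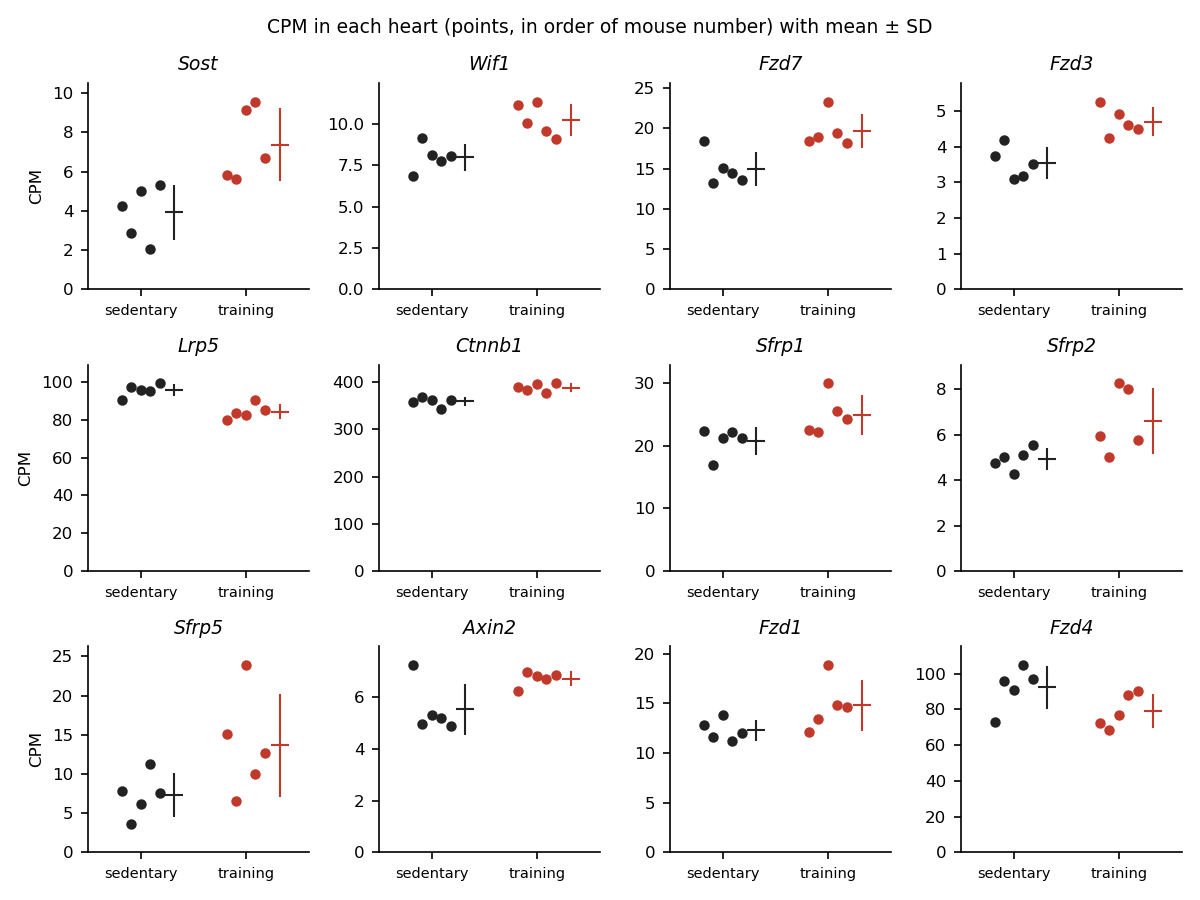
CPM of 12 members in each heart (points in order of mouse number; black, sedentary; red, training), with the mean and SD of each group beside them, on axes that start at 0. In Sost, Fzd3 and Ctnnb1 all training hearts lie above all sedentary hearts, while sedentary heart 1 lies among or above the training hearts in Fzd7 and Axin2.

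R-spondins are secreted proteins that strengthen Wnt signals by removing the ligases ZNRF3 and RNF43 from the cell surface. Rspo1 gave 90.7% of their summed TPM. It was at 4.30, 3.55, 4.74, 4.45 and 3.68 CPM in training hearts and at 4.55, 3.24, 3.51, 2.87 and 2.71 CPM in sedentary hearts. Sedentary heart 1 lay among the highest training hearts, and the other sedentary hearts were below all training hearts. The log2 fold change was 0.29 (standard error 0.14, edgeR Benjamini-Hochberg adjusted p = 0.260), and without sedentary heart 1 it was 0.43 with an adjusted p of 0.0609. Rspo3, an angiogenic factor, was at 0.566, 0.458, 0.669, 0.436 and 0.796 CPM in training hearts and at 0.671, 0.964, 0.639, 0.427 and 0.603 CPM in sedentary hearts, with wide overlap (log2 fold change −0.18, standard error 0.24, edgeR Benjamini-Hochberg adjusted p = 0.737). Rspo2 did not pass the filter and had 9, 7, 2, 2 and 1 counts in training hearts and 1, 1, 1, 0 and 0 counts in sedentary hearts. In CPM its groups did not overlap, as for 2.12% of the genes tested in that direction and 5.06% in either, a set without Rspo2. With no filter on low counts, edgeR called Rspo2. Training heart 5 and sedentary hearts 1, 2 and 3 had 1 count each, so the gap between 0.0332 and 0.0292 CPM came from library size alone. It lies under the limit of 3 counts, and most of the 24 counts of Rspo2 came from training hearts 1 and 2.

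ZNRF3 and RNF43 are membrane ligases that send Frizzled receptors and LRP6 for degradation. Znrf3 was at 6.88, 8.70, 9.05, 7.63 and 8.79 CPM in training hearts and at 7.48, 6.16, 7.35, 7.85 and 7.45 CPM in sedentary hearts. Training hearts 2, 3 and 5 were above the sedentary hearts and training hearts 1 and 4 among them (log2 fold change 0.18, standard error 0.090, edgeR Benjamini-Hochberg adjusted p = 0.293). Rnf43 was rare, at 0.255, 0.315, 0.535, 0.685 and 0.299 CPM in training hearts and 0.547, 0.146, 0.319, 0.228 and 0.301 CPM in sedentary hearts. The groups overlapped, with sedentary heart 1 again the highest of its group (log2 fold change 0.41, standard error 0.36, edgeR Benjamini-Hochberg adjusted p = 0.574).

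Ctnnb1 (ENSMUSG00000006932, chromosome 9, 120757422 to 120789579) was at 389.9, 383, 396, 377 and 398 CPM in training hearts 1 to 5 and at 359, 369.7, 363, 344 and 361 CPM in sedentary hearts 1 to 5. All training hearts lay above all sedentary hearts, a separation found in 3 tested members, Ctnnb1, Fzd3 and Sost, beside 2.12% of all genes in that direction, and 0 tested members were apart in the lower direction, beside 2.94% of all genes. The means were 389 ± 8.82 CPM and 359 ± 9.59 CPM (SD, n = 5 each), a log2 fold change of 0.11 (standard error 0.036, edgeR Benjamini-Hochberg adjusted p = 0.102), just outside the threshold. DESeq2 gave a Benjamini-Hochberg adjusted p of 0.00824. The most abundant member thus differed by 1.08-fold.

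Axin2, the scaffold that beta-catenin induces in many tissues, was at 6.23, 6.96, 6.83, 6.69 and 6.87 CPM in training hearts and at 7.25, 4.96, 5.32, 5.21 and 4.88 CPM in sedentary hearts. Sedentary heart 1 was the highest of all 10 hearts, and the other sedentary hearts were below every training heart. With all hearts the log2 fold change was 0.28 (standard error 0.11, edgeR Benjamini-Hochberg adjusted p = 0.160), and without sedentary heart 1 it was 0.40 with an adjusted p of 0.0131. Over 10 fits that each left out 1 heart, Axin2 was called in this fit alone. Axin1, the constitutive scaffold, was at 24.8, 22.7, 26.9, 21.4 and 23.6 CPM in training hearts and at 21.6, 21.9, 23.2, 21.3 and 23.0 CPM in sedentary hearts. The groups overlapped (log2 fold change 0.11, standard error 0.059, edgeR Benjamini-Hochberg adjusted p = 0.340).

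The TCF and LEF factors, which carry beta-catenin to DNA, held 0 called members in edgeR and in DESeq2, and 0 had an unadjusted p below 0.05. Tcf7l1, mainly a repressor, gave 71.4% of their summed TPM and Tcf7l2 24.1%. Tcf7l1 was at 17.6, 18.0, 18.2, 18.3 and 17.3 CPM in training hearts and at 17.9, 17.1, 18.0, 20.1 and 20.8 CPM in sedentary hearts. Sedentary hearts 4 and 5 were highest and the others lay with the training hearts (log2 fold change −0.070, standard error 0.059, edgeR Benjamini-Hochberg adjusted p = 0.555). Tcf7l2 was at 7.84, 8.30, 7.47, 7.72 and 7.79 CPM in training hearts and at 7.35, 7.01, 8.78, 8.45 and 6.85 CPM in sedentary hearts, with the training hearts inside the sedentary range (log2 fold change 0.025, standard error 0.080, edgeR Benjamini-Hochberg adjusted p = 0.897). Tcf7, known from T cells, had a log2 fold change of 0.10, and Lef1, known from development and lymphocytes, had at most 5 counts in a heart.

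Other genes of the pathway outside the 54 were taken from a hand-written list of 67, of which 60 were tested and 8 were called, all higher, beside the 2.75% of all genes called higher. Of the 60 genes 44 lay above 0 and 16 below, the median log2 fold change being 0.048. The called genes included 5 of the 11 tested partners of the receptors and co-receptors, namely Ror2, Ptk7, Lrp4, Reck and Adgra2. Ror2, a receptor tyrosine kinase for WNT5A, was between 2.06 and 2.54 CPM in training and between 1.34 and 1.89 CPM in sedentary hearts, without overlap (log2 fold change 0.52). Ptk7, a pseudokinase of planar cell polarity, had 0.45, and Lrp4, to which sclerostin also binds, had 0.22. Reck and Adgra2, partners that present WNT7 ligands to Frizzled receptors, had 0.33 and 0.30, while Wnt7a and Wnt7b themselves stayed at or under 12 counts. Wls, the carrier that brings Wnt proteins to the cell surface, rose by 0.22 on the log2 scale. Of 13 reported targets of beta-catenin signaling 10 were tested, and 1 was called, Tnfrsf19 at 0.55. Of the 9 that were not, Ccnd1 was at −0.024, Jun at 0.020, Cd44 at 0.043, Ccn4 at 0.10 and Myc at 0.12. Bambi was at 0.26, Apcdd1 at 0.27, Nkd1 at 0.33 and Id2 at 0.44. Of the 10 targets 9 lay above 0, with a median of 0.19. At an unadjusted p below 0.05, 4 of the 10 were higher, beside the 9.40% of all genes. Dkk3, a relative of the Dickkopf antagonists that does not act on LRP6 in the same way, had the largest change, 0.73, and was the second most abundant of these genes at 66.6 TPM. The adjusted p of the 8 genes lay between 0.0223 and 0.0448 in edgeR's quasi-likelihood F test after Benjamini-Hochberg adjustment. By edgeR 0 of 17 tested genes of the destruction complex and cytoplasmic relay, 0 of 10 nuclear partners of beta-catenin and 0 of 8 planar cell polarity genes were called, with 3, 3 and 2 of them at an unadjusted p below 0.05, beside the 20.0% of all genes tested. Of those at an unadjusted p below 0.05, the relay list had 2 higher and 1 lower. The 3 nuclear partners were all lower and the 2 planar cell polarity genes higher. DESeq2 called 10 of the whole list, the same 8 with Lgr6 and Pygo1 in addition. In edgeR Lgr6 had 0.24 on the log2 scale and Pygo1, a nuclear partner, was lower at −0.16.

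Some markers of other cell types differed between the groups, and over all genes 2.75% were called higher and 4.26% lower. Hearts were taken with their atria, and all 7 atrial cardiomyocyte markers had positive log2 fold changes, with Sln and Stard10 called higher and none at 0. Summed over the list, the training hearts ranged from 4953 to 7514 CPM and the sedentary hearts from 2771 to 6792 CPM, sedentary heart 1 being at 6792 CPM. Fibroblast markers summed to between 3018 and 3989 CPM in training and between 2738 and 3167 CPM in sedentary hearts, with Pdgfra, Lum and Gsn of 8 called higher. Heart valve markers ranged from 237 to 329 CPM and from 205 to 251 CPM, with Comp and Fmod of 9 called higher, and endocardium markers from 296 to 367 CPM and from 210.4 to 303 CPM, with Cytl1 of 5 called higher. Endothelium markers summed to a lower level, from 942 to 1013 CPM against 1041 to 1087 CPM. Of these 8 genes Tie1 and Flt1 were called lower, 6 lay below 0, and Emcn at 0.016 and Tek at 0.055 lay above. Of 8 smooth muscle and pericyte markers, Tagln and Cnn1 were called higher and Rgs5 lower, with summed ranges of 1192 to 1363 CPM and 1217 to 1399 CPM that overlapped. Skeletal muscle markers, of which 4 of 7 were tested, ranged from 1841 to 2294 CPM in training and from 2333 to 2663 CPM in sedentary hearts, with Acta1 and Ckm called lower. Nearly all of these sums was Ckm, at 1636.5 and 1909 CPM on average, and Acta1, at 310 and 556 CPM. Myh1, Myh2 and Myh4 had at most 4 counts in a heart. Tnnt3, at 0.43 on the log2 scale, and Mylpf, at −0.20, were below 1 CPM on average and not called. Of 14 core clock genes 5 were called higher and 3 lower. All 8 cardiomyocyte markers lay below 0, with a median log2 fold change of −0.11, and Actc1 was called lower. Fabp4 of the 8 adipocyte markers was called lower. Of the 7 adipocyte markers tested, the other 6 lay above 0 without being called, and the median log2 fold change of the 7 was 0.65. Summed levels of epicardium markers, from 88.0 to 132 CPM and from 67.5 to 123 CPM, overlapped between the groups, as did those of the macrophage, Schwann cell, lymphocyte and erythroid lists. All 8 epicardium markers lay above 0, with a median log2 fold change of 0.13. The 5 tested Schwann cell and neuron markers lay above 0 and the 5 tested erythroid markers below 0. None of these 3 lists held a called gene.

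In Fzd7, Axin2 and Rspo1, sedentary heart 1 had the highest value of its group and also the highest atrial level of its group. Over the 38 tested members, sedentary heart 1 was the highest sedentary heart for 15 (39.5%, beside 23.0% of all genes), and training heart 3, with the highest atrial level of all, was the highest training heart for 12 (31.6%, beside 20.6%). Training heart 2, with the lowest atrial score of its group, was the highest for 10 (26.3%, beside 20% of all genes). By summed marker CPM, training heart 5 was the lowest of its group at 4953 CPM, and it was the highest for 6 (15.8%, beside 19.4%). Training heart 1 was the highest for 1 and the lowest for 14 (36.8%, beside 23.4% of all genes). In Wif1 sedentary heart 1 was the lowest heart instead, and in Sost and Fzd3 it lay within the sedentary range.

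**Figure D4:**
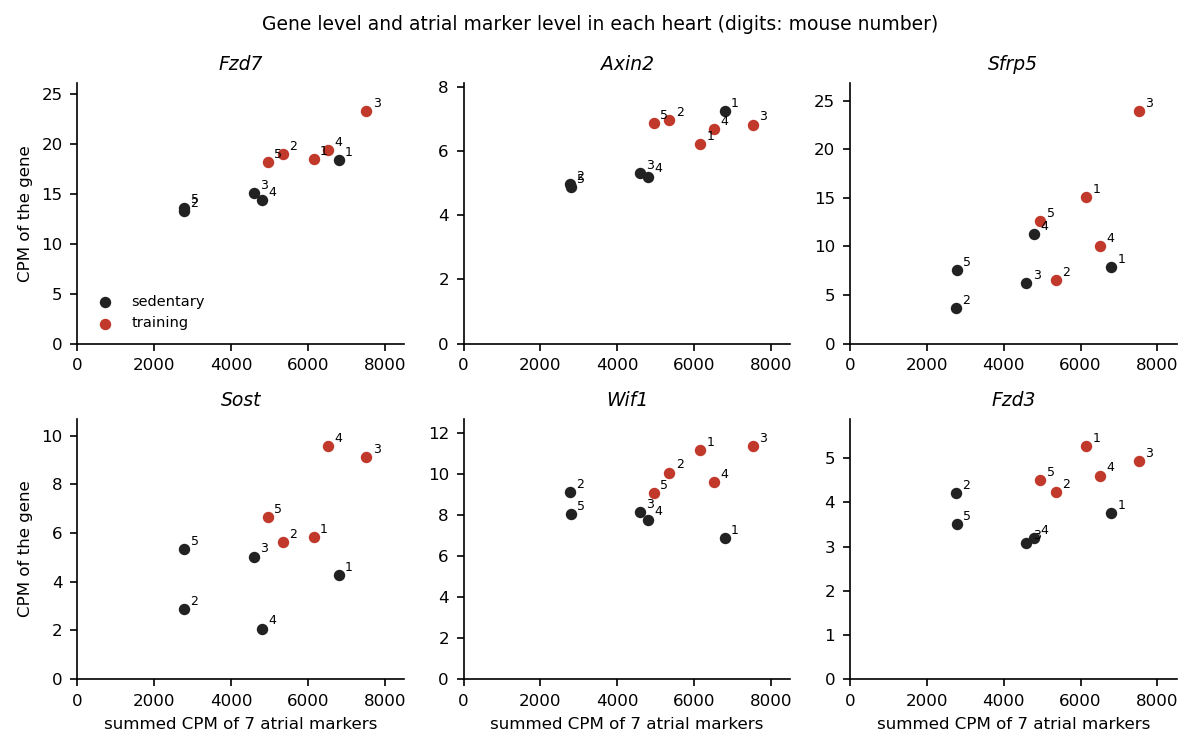
CPM of 6 members (vertical axis) against the summed CPM of 7 atrial markers (horizontal axis) in each heart, with the mouse number beside each point (black, sedentary; red, training). Sedentary heart 1, at 6792 CPM of atrial markers, lies with the training hearts in Fzd7 and Axin2 and below all of them in Wif1, Sost and Fzd3.

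Adding the atrial marker score to the edgeR fit left 0 members called, and 154 genes over all. The score ran from 0.051 to 0.64 in training hearts and from −0.96 to 0.40 in sedentary hearts. It thus goes partly with the group, and training and atrial level cannot be fully told apart by this fit. In that fit 6 members (15.8%) had an unadjusted p below 0.05, 5 of them higher, beside 12.4% of all genes in either direction and 5.29% higher. DESeq2 and the other edgeR fits without the score called between 3 and 9 members. All 5 called members kept their direction. Wif1 was at 0.44 (standard error 0.11, edgeR Benjamini-Hochberg adjusted p = 0.105), Fzd3 at 0.45 (standard error 0.13, adjusted p = 0.185 in edgeR), Sost at 0.82 (standard error 0.30, adjusted p = 0.283 in edgeR) and Lrp5 at −0.14 (standard error 0.051, adjusted p = 0.286 in edgeR). Fzd7 was at 0.20 (standard error 0.078, edgeR Benjamini-Hochberg adjusted p = 0.312), Sfrp5 at 0.34, Axin2 at 0.12, Sfrp1 at 0.095 and Rspo1 at 0.058 on the log2 scale. The median over the 38 members was 0.060 in that fit, with 23 above 0 and 15 below. Without sedentary heart 1 all 5 stayed called, with Axin2, Fzd2, Fzd4 and Rspo1 in addition, and the range of adjusted p of the named 5 was 0.00759 to 0.0489 in edgeR. Calls over all genes also changed with hearts left out, so the added calls are not read as a result about the members. Of the other pathway genes, Dkk3 of the 8 stayed called with the score, at 0.35 (edgeR Benjamini-Hochberg adjusted p = 0.0732). The part of the other marker lists in these differences was not tested.

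**Figure D5:**
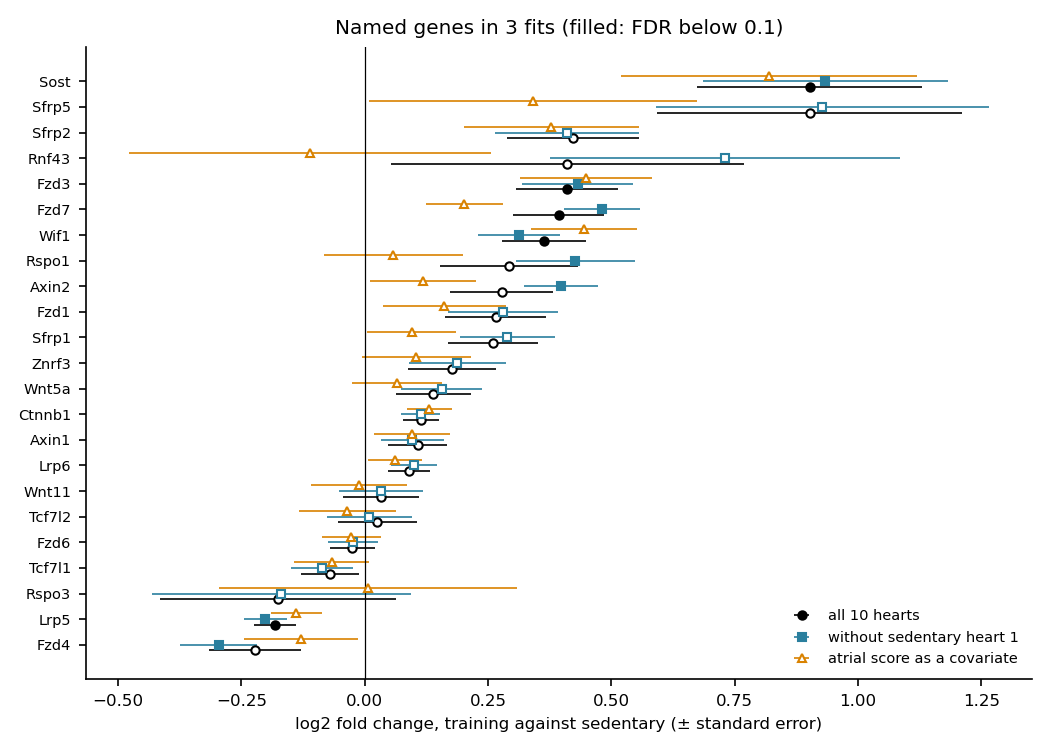
Log2 fold change (points) with standard error (bars) of 23 named members in 3 edgeR fits: all 10 hearts (black circles), without sedentary heart 1 (blue squares) and with the atrial marker score added (orange triangles), with filled symbols for an FDR below 0.1. Sost, Fzd3 and Wif1 keep similar values in all 3, whereas Fzd7, Sfrp5, Rspo1, Axin2 and Sfrp1 lie closer to 0 with the score.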

How the data were processed

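Whole-heart RNA of 5 training and 5 sedentary mice was made into directional poly-A libraries, which were pooled and sequenced with single reads. The authors aligned reads to GRCm39 with STAR 2.7.10a and deposited the raw counts that STAR made of uniquely mapped reads, for each strand and both. From RSEM 1.3.3 the authors deposited expected counts, TPM and FPKM per gene, for which the sources used here give no strand setting. FPKM were not used. Versions are those of the submitters' processing notes and methods.

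Reverse-strand counts were used, after leaving out the 4 lines that are no gene, multimapping reads (17.9% to 19.2%) and reads on no gene (4.15% to 4.89%) among them. Symbols came from GENCODE M39, in which 56017 of 56748 identifiers matched. Hearts were grouped by their labels. The comparison used edgeR 4.0.16 in R 4.3.3 (filterByExpr, TMM, quasi-likelihood F test, Benjamini-Hochberg adjustment over all 15454 genes tested, FDR below 0.1, the threshold of the study). The atrial score is the mean centered log2 CPM of 7 markers, with a prior count of 2. Pairs of hearts within a group had a chi-square of 6.16 to 27.4 per degree of freedom, above counting noise. The steps were tested on simulated counts.

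The members and gene lists were chosen with earlier results of these data known. Values of every heart are given for members called, with an unadjusted p below 0.05 or without overlap, and for the 2 of each role with the highest TPM among those tested. The called genes of the other pathway list, its tested targets of beta-catenin signaling and marker genes beside their list were named as well. Promoter windows came from the GRCm39 genome. Alternatives were DESeq2 1.42.0, DESeq2 size factors, library totals, no filter, at least 10 counts per heart, rounded RSEM expected counts, counts of both strands, a block by mouse number, the atrial score, each heart left out, FDR below 0.05, and CPM per kilobase for levels.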

Additional observations from a re-analysis of the deposited data

Results flagged for a closer look

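In groups of 5 hearts, a value was singled out where its gap to the nearest heart exceeded 0.71 of the range of the group (Dixon's 95% limit). Of 76 pairs of a tested member and a group 4 were singled out, and chance alone gives about 1 in 20. Axin2 in sedentary heart 1 was at 7.25 CPM against 4.88 to 5.32 CPM in the other sedentary hearts, and the same heart had the highest atrial marker level of its group. Fzd7 in training heart 3 was at 23.3 CPM against 18.1 to 19.4 CPM in the other training hearts, and that heart had the highest atrial marker level of all. Sfrp1 in sedentary heart 2 was low at 16.8 CPM, with the other sedentary hearts between 21.2 and 22.4 CPM. Wnt6 in sedentary heart 5 was at 0.548 CPM against 0.186 to 0.256 CPM. The part of the atrial level in the values of Axin2 and Fzd7 was not tested.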

How the results depend on the processing

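The number of called members was 5, and 6 with DESeq2 size factors, 7 with at least 10 counts per heart, and 5 each with RSEM counts, counts of both strands and an FDR below 0.05. It was 8 with DESeq2, 9 with library totals, 9 with no filter (Rspo2 among them) and 0 with the atrial score. With each heart left out it was 3 to 9, lowest without training heart 3 (Fzd7, Lrp5 and Wif1) and highest without sedentary heart 1. Without training heart 2 it was 8. Calls over all genes also shifted under 7 alternatives, so a larger count of members is not read as a result about the members. The median log2 fold change of the members was 0.060 with the atrial score and 0.12 to 0.22 with hearts left out, highest without training heart 1. The other pathway genes had 2 calls with the atrial score and 7 to 12 with hearts left out, against 8. Over all genes 1084 calls became 154 with the atrial score, 505 at an FDR below 0.05 and 512 to 1490 with hearts left out; library totals gave 1029 higher and 339 lower against 425 and 659, and moved the median of all genes by 0.053. Signs turned for Wnt11 (−0.012 with the atrial score, and −0.016 to 0.070 with hearts left out, below 0 without sedentary heart 2), Fzd6 (0.029 with library totals), Rspo3 (0.0060 with the atrial score), Rnf43 (−0.11 with the atrial score) and Tcf7l2 (−0.035 with the atrial score, and −0.014 to 0.083 with hearts left out, below 0 without sedentary heart 2 or 5), none of them called, and the causes were not tested. Elsewhere the named members kept direction and side of the threshold in 394 values under an alternative, with 24 turning into calls and 10 losing them. Rnf43 has no value with at least 10 counts per heart. With the mouse number as a replicate block, 8 members were called; hearts of the same number had residual correlations from −0.097 to 0.16 and 3 of 10 hearts correlated best with their own number, so the numbers were not used as pairs. Depth limits the 16 untested members, and 5 hearts per group and unequal atrial levels limit the rest.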

Other observations

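Wnt2b carried more counts on the strand opposite to the gene than on its own. Over the 10 hearts 585 counts lay on the forward-strand column and 431 on the reverse-strand column used here, so that 57.6% were opposite, while 4.79% or less were opposite in every other tested member. Among the genes of the count tables, none on the other strand overlaps Wnt2b at its GENCODE M39 position, whereas Gm43846 overlaps it on the same strand. Annotated genes outside the count tables were not searched, and the source of the opposite counts was not tested. Wnt2b itself was at 1.36 ± 0.513 CPM in training hearts and 1.07 ± 0.597 CPM in sedentary hearts (SD, n = 5 each), with wide overlap.

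Ctnnb1 and Lrp5 are the tested members with the smallest standard errors, 0.036 and 0.042 on the log2 scale, and differences of 1.08-fold and 0.88-fold lay near or past the threshold there. Sfrp5, with a fold of 1.87 and a standard error of 0.31, did not pass it.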
